A study of Mus musculus with 2 samples.

Results

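Processed pseudogenes are copies of messenger RNAs that were reverse transcribed and inserted elsewhere in the genome, and their long reads in the adrenal gland of newborn mice are described here. The members were all genes typed as processed_pseudogene or transcribed_processed_pseudogene in the GENCODE mouse annotation that had at least 1 long read in either library, with Oaz1-ps left out. They numbered 612 of the 10236 such genes annotated, or 5.98%, among 18053 annotated genes of any type with reads. Of the members, 558 were typed processed_pseudogene and 54 transcribed_processed_pseudogene, the type given to copies with evidence of transcription.

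The RNA was total RNA from the adrenal glands of male B6CASTF1/J mice aged 4 days, bought from The Jackson Laboratory, with no treatment and no second condition. There was 1 group of 2 biological replicates with 1 long-read library each. The labels give both libraries the same donor identifier and number the males differently in the tissue and library descriptions, so it is not clear that 2 animals stand behind them, and every spread below is that of 2 libraries. B6CASTF1/J is a hybrid strain, and the reference sequences shown here are those of the annotated mouse genome, not of its CAST chromosomes.

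A processed pseudogene usually lacks the introns and the promoter of its parent gene, and most copies decay by mutation once inserted. Genes read heavily in the germ line, such as those of ribosomal proteins and of glycolysis, are known to have left many copies. A young copy can match the parent's coding sequence base for base, so a read of the spliced parent RNA and a read of the copy can be hard to tell apart. The reads of such near-identical pairs could be split between copy and parent by the authors' alignment, and every count of a member at high identity is uncertain in that sense.

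Replicate 1 held 688260 mouse reads and replicate 2 held 810645, with the spike-ins left out. Levels (CPM) are counts of reads scaled to 1e6 mouse reads per library, with no division by length, since 1 read stands for 1 cDNA molecule of any length. On this scale 1 read was worth 1.45 CPM in the first library and 1.23 CPM in the second. The libraries differed in their tissue makeup. The summed level of 6 cortex markers was 45805 CPM in replicate 1 and 31233 CPM in replicate 2, that of 5 medulla markers 12468 and 9258, that of 6 liver markers 206 and 9802, and that of 5 red blood cell markers 3670 and 7480. All markers of the 4 lists had reads in both libraries, and their part in the results below was not tested. In bulk RNA of this kind, fewer cells of a type and less RNA per cell cannot be told apart.

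The sequences of leading copies show how little separates them from their parents. Each line below is a stretch of coding sequence from GENCODE M21 (mm10), read from the 5′ to the 3′ end on the coding strand, in lower case where copy and parent match and in capitals where they differ. Positions count from the A of the parent's start codon.

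Copies of Gapdh, the glycolytic enzyme glyceraldehyde-3-phosphate dehydrogenase, are shown because nearly all reads of the family lay on them. Bases 385 to 504 of the coding sequence hold every substitution found in 4 leading copies, T504C in Gm12033 and T385A in Gm5559, while Gm12671 and Gm7336 carry none in 1002 coding bases. The windows lie at chr4:91852166-91852285 on the minus strand (Gm12671), chr11:20335510-20335629 on the minus strand (Gm12033), chr5:95862098-95862217 on the plus strand (Gm5559) and chr7:51747081-51747200 on the plus strand (Gm7336).
Gapdh: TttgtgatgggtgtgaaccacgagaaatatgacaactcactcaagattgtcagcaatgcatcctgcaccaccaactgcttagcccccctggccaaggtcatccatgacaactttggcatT
Gm12671: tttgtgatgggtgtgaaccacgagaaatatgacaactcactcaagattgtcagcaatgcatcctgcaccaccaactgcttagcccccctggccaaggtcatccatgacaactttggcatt
Gm12033: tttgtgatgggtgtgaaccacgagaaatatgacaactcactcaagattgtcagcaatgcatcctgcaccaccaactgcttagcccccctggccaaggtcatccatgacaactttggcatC
Gm5559: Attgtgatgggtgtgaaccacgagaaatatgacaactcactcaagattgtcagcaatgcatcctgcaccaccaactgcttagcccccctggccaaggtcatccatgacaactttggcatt
Gm7336: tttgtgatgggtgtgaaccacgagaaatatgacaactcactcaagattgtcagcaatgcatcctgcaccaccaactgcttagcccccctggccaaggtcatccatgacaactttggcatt

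Copies of Rpl21, a protein of the large ribosomal subunit, are shown for the same reason. The 3 copies share T336C and T432C, and Rpl21-ps15 adds G378A. In a comparison of each substitution with the parent codon, all of them left the encoded amino acid as it was. Gm10163 also has 2 gap bases outside the window, with 481 of the 483 coding bases of Rpl21 aligned, and their effect was not assessed. The windows lie at chrX:151215218-151215337 on the minus strand (Rpl21-ps15), chr2:24986296-24986415 on the plus strand (Gm13370) and chr9:88391149-88391268 on the plus strand (Gm10163).
Rpl21: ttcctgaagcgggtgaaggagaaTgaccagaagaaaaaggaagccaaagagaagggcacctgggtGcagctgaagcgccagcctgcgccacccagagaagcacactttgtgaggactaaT
Rpl21-ps15: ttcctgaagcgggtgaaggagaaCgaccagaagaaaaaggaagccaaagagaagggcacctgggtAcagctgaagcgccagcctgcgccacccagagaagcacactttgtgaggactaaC
Gm13370: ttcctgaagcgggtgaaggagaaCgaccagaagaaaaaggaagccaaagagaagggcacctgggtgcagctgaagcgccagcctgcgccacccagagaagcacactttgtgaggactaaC
Gm10163: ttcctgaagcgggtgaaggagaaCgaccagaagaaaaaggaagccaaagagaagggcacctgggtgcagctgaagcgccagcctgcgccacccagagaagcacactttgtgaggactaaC

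Rps19-ps6, a copy of the small-subunit gene Rps19 inside an intron of Tecpr2, differs at 5 of 438 coding bases. Its window at chr12:110898384-110898503 on the plus strand holds 4 of them, T273C, G369A, G372A and C390T, and the other is C6T. All 5 lie at the third codon position and left the amino acid as it was.
Rps19: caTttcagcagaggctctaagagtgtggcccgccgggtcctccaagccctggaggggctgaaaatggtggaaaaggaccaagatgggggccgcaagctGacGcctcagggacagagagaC
Rps19-ps6: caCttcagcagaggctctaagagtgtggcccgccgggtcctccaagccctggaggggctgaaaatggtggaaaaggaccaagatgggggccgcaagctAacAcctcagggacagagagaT

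Gm10243, a copy of the large-subunit gene Rpl35a, has 1 substitution, G156A, in 333 coding bases. Its window lies at chr6:48523639-48523728 on the plus strand.
Rpl35a: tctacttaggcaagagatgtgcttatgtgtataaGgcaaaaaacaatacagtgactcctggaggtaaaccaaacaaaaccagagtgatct
Gm10243: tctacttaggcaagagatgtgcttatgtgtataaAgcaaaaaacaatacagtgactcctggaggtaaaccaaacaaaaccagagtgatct

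Gm15459, a copy of Hspa8, the constitutive heat shock cognate chaperone, has 5 substitutions in 1941 coding bases. They are G114A, C414T, C549T, G1222A and C1440T, of which 4 left the amino acid as it was. The window around G1222A lies at chr5:5782334-5782453 on the minus strand.
Hspa8: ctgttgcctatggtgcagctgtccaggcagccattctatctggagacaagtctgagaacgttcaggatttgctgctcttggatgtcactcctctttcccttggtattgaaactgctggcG
Gm15459: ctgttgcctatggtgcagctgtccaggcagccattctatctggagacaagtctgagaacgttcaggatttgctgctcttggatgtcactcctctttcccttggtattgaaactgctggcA

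Rps4l, a copy of the small-subunit gene Rps4x, is shown as the contrast, since it was the only one of the 10 leading transcribed members under 99% identity. It has 138 substitutions in 780 aligned coding bases, of which 117 taken singly left the amino acid as it was, and its own open reading frame spans 789 bases against 792 in Rps4x. The window at chr6:148354729-148354818 on the plus strand has 22 differing bases of 90.
Rps4x: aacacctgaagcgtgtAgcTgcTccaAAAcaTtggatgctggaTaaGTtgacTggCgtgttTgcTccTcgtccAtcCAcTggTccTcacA
Rps4l: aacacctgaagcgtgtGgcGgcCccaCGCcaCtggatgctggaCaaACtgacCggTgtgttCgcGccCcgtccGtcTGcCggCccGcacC

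Member reads made up about 2 in 100 mouse reads of each library. Replicate 1 held 12775 member reads, 1.86% of mouse reads (95% Wilson interval 1.83 to 1.89), and replicate 2 held 16158, 1.99% (1.96 to 2.02). The intervals cover counting error only, because the reads carry no molecular identifiers and need not be independent molecules. Summed levels were 18561 and 19932 CPM, a mean of 19247 ± 969 CPM (SD, n = 2). Members of the transcribed type held 1729 and 2328 of these reads. The reads were concentrated in few genes: the first 10 members held 42.2% of them, the first 20 held 57.2% and the first 100 held 90.4%. At the other end, 222 members had a single read over both libraries and the median was 3 reads, while 176 members had at least 10 reads and 57 at least 100.

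Members found in only 1 library had at most 7 reads. Replicate 1 held reads of 431 members and replicate 2 of 504, and 323 were in both. There were 108 such members in replicate 1 and 181 in replicate 2. Of these 612 members, 222 had a single read, which can lie in 1 library only. Of the 18053 annotated genes of any type with reads, 15535 had reads in replicate 1 and 16618 in replicate 2. Depth was not held equal between members and all genes. A gene without a read in a library may still hold up to 3 reads there, or 4.36 CPM in replicate 1 and 3.70 CPM in replicate 2, so their absence was not detectable at this depth.

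The leading members were copies of chaperone, cyclophilin and ribosomal protein genes. Gm15459 (chr5:5781615-5783555) had 1235 reads in replicate 1 and 947 in replicate 2, or 1481 ± 443 CPM (SD, n = 2), and its parent Hspa8 had 1451 and 1042 reads. Gm10123 (chr9:96895658-96896147), a copy of the cyclophilin gene Ppia identical to it over all 490 annotated bases, had 896 and 1214 reads, or 1400 ± 138 CPM. Ppia itself had 942 and 1269 reads, so that copy and parent were both lower in replicate 2 in the Hspa8 pair and both higher in the Ppia pair. Gm15500 (chr7:114705217-114706235), identical to the whole coding sequence of the large-subunit gene Rpl5, had 691 and 901 reads, or 1058 ± 76.0 CPM. Rpl3-ps1 (chrX:13202571-13203780), a copy of the large-subunit gene Rpl3, had 639 and 668 reads, or 876 ± 73.8 CPM. Rps19-ps6 had 429 and 619 reads, or 693 ± 99.2 CPM, and Gm8172 (chrX:69605496-69606245), a copy of the small-subunit gene Rps6, had 342 and 520 reads, or 569 ± 102 CPM. By mean CPM, Gm15459 ranked 42nd, Gm10123 49th, Gm15500 78th and Rpl3-ps1 106th among all genes with reads.

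The other leaders ran from 553 down to 233 CPM. Gm10243 (Rpl35a) had 350 and 484 reads, Gm14303 (Rps29) 337 and 437, Rpl37rt (Rpl37) 308 and 462, and Rps2-ps13 (Rps2) 331 and 398, each named with its ribosomal protein parent. Gm9843 is a copy of Fau, which encodes a ribosomal protein fused to a ubiquitin-like domain, and had 290 and 350 reads. Gm12338 is a copy of Cox7c, a subunit of cytochrome c oxidase, and had 187 and 304 reads. Rpl21-ps15 had 209 and 257 reads, Gm7536 (Rpl27a) 165 and 226, Rps13-ps1 (Rps13) 144 and 228, and Rpl15-ps3 (Rpl15) 146 and 205. The remaining leaders were Gm10698, a copy of the vesicle transport gene Tmed2 with 231 and 221 reads, Gm14539, a copy of Usmg5, a small protein of ATP synthase, with 159 and 262 reads, Gm12671 (Gapdh) with 196 and 192 reads, and Gm8186, a copy of the spliceosome gene Snrpg with 154 and 216 reads. Only Gm15459, Gm10698 and Gm12671 had fewer reads in replicate 2 than in replicate 1, although replicate 2 was the deeper library.

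**Figure D1:**
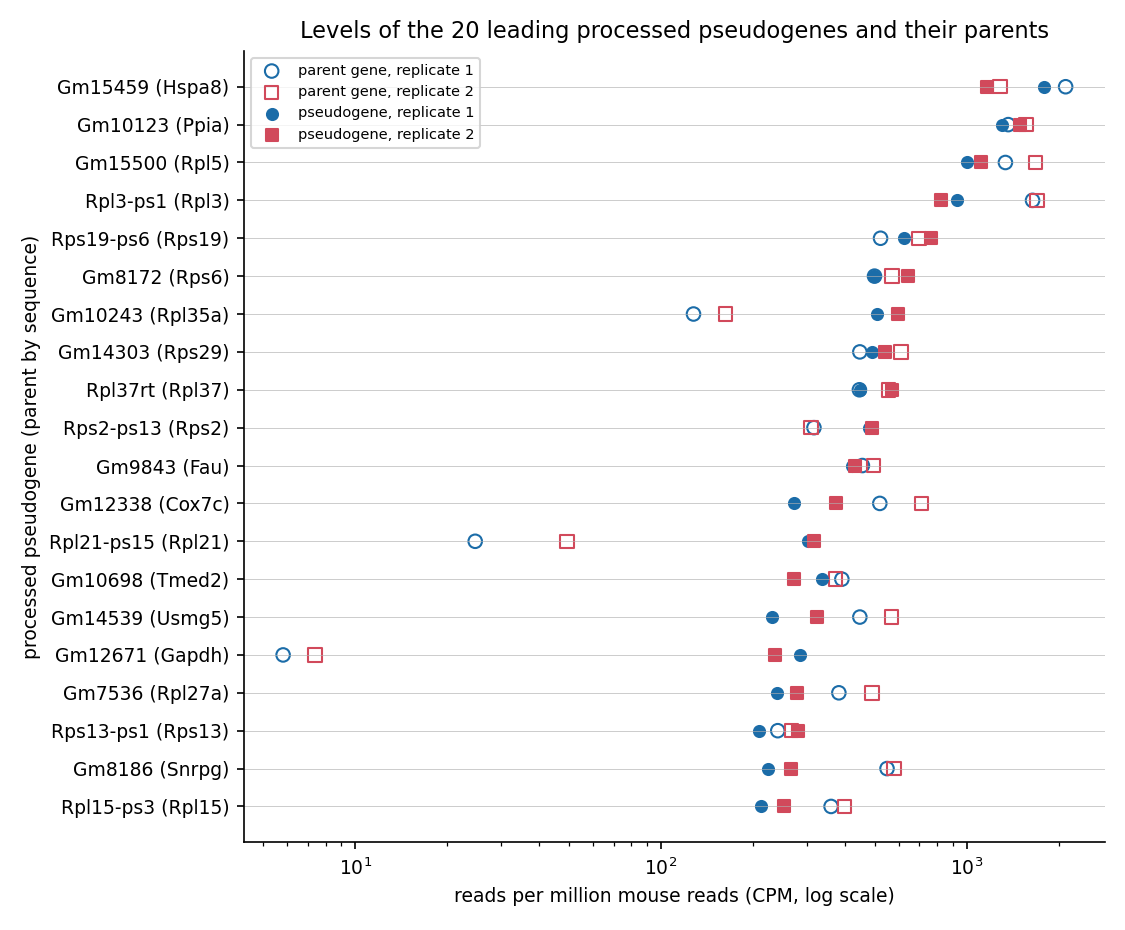
Level of the 20 processed pseudogenes with the highest mean CPM (filled symbols) and of the parent gene each resembles by sequence (open symbols), in CPM on a log axis, for replicate 1 (blue circles) and replicate 2 (red squares). Most copies lie near their parent, while the parents of Rpl21-ps15, Gm12671 and Gm10243 lie far to the left of their copies.

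By family of the parent, ribosomal protein copies held most of the member reads. Parents were assigned by sequence, as the multi-exon protein-coding transcript that best matched the annotated copy and covered at least 50% of it, which gave 352 parents for 555 members with 99.4% of member reads. Copies of ribosomal protein genes were 209 of the members and held 7099 and 9685 reads, 55.6% and 59.9% of member reads. Copies of chaperone and folding genes were 6 members with 16.8% and 13.5% of the reads, and among them Gm15459 and Gm10123 led far above Hsp25-ps1, a copy of the small heat shock gene Hspb1 with 8 and 9 reads. Glycolysis had 15 members with 533 and 545 reads, led by Gm12671, Gm12033 and Gm5559, all copies of Gapdh. Respiration had 23 members with 513 and 787 reads, led by Gm12338, Gm10231 and Gm10175. Gm10231 and Gm10175 are copies of Atp5g2, a subunit of the ATP synthase ring. The lists go by gene symbol, so Gm14539 (Usmg5), with 159 and 262 reads, was not counted under respiration.

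The other families held fewer reads. Copies of chromatin and RNA-binding genes were 34 members with 408 and 456 reads, led by Gm8186, by Gm5641, a copy of the RNA-binding gene Hnrnpa3 with 80 and 72 reads, and by Cbx3-ps7, a copy of the heterochromatin protein gene Cbx3 with 56 and 46. Translation and nascent-chain genes had 14 members with 135 and 172 reads, of which Eif4a-ps4, a copy of the initiation helicase Eif4a1, held 106 and 122, Gm4366 (Eef1g) 6 and 15, and Gm6863 (Naca) 6 and 12. Cytoskeletal genes had 8 members with 74 and 93 reads, led by Gm11223 (Stmn1), Gm17383 (Tuba1b) and Gm5526 (Myl6). Ubiquitin and proteasome genes had 15 members with 50 and 64 reads, led by Gm1821 (Ubb), Gm4118 (Psma2) and Ube2n-ps1 (Ube2n). Iron storage genes had 4 members with 6 and 3 reads, among them Ftl2-ps with 5 and 1, Gm15590 with 1 and 0, and Fth-ps2 with 0 and 1. In the remaining 227 members with a parent outside the lists, Gm10698, Gm14539 and Gm12481, a copy of Serf2 with 72 and 96 reads, held the most reads.

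Reads were found on more than 50% of the copies closest to their parents and on few of the rest. Identity was counted over the whole annotated copy, with each mismatch, inserted or missing base as 1 difference. Of the 134 annotated copies identical to their parent mRNA, 56.0% had at least 1 read (95% Wilson interval 47.5 to 64.1), and of the 390 at 99% to under 100%, 52.6% had (47.6 to 57.5). The share was 21.2% at 98% to under 99% identity, 7.88% at 95% to under 98%, 2.47% at 90% to under 95% and 1.55% (1.17 to 2.04) under 90%. The median identity was 99% in members and 90.4% in the 6519 annotated copies with a parent and no reads. Members identical to the parent numbered 75 and held 39.7% of the member reads, and the 280 at 99% or more held 88.5%.

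The level at the parent's own locus went with detection at high identity. Reads assigned to copies are not part of that level, so it is not independent of detection on the copies. Gapdh, at 5.81 and 7.40 CPM, counted as under 100 CPM, although parent and copies together had 777 and 676 CPM. Among identical copies of parents at 100 CPM or more, 81.4% had reads (70.8 to 88.8), against 28.1% (18.6 to 40.1) where the parent was under 100 CPM. At 99% to under 100% identity the shares were 65.5% (58.5 to 71.8) and 39.8% (33.2 to 46.8). Under 90% identity they were 1.86% (1.29 to 2.68) and 1.25% (0.811 to 1.92), with overlapping intervals. The copies of 1 parent are not independent of each other, so these intervals are narrower than the true uncertainty.

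**Figure D2:**
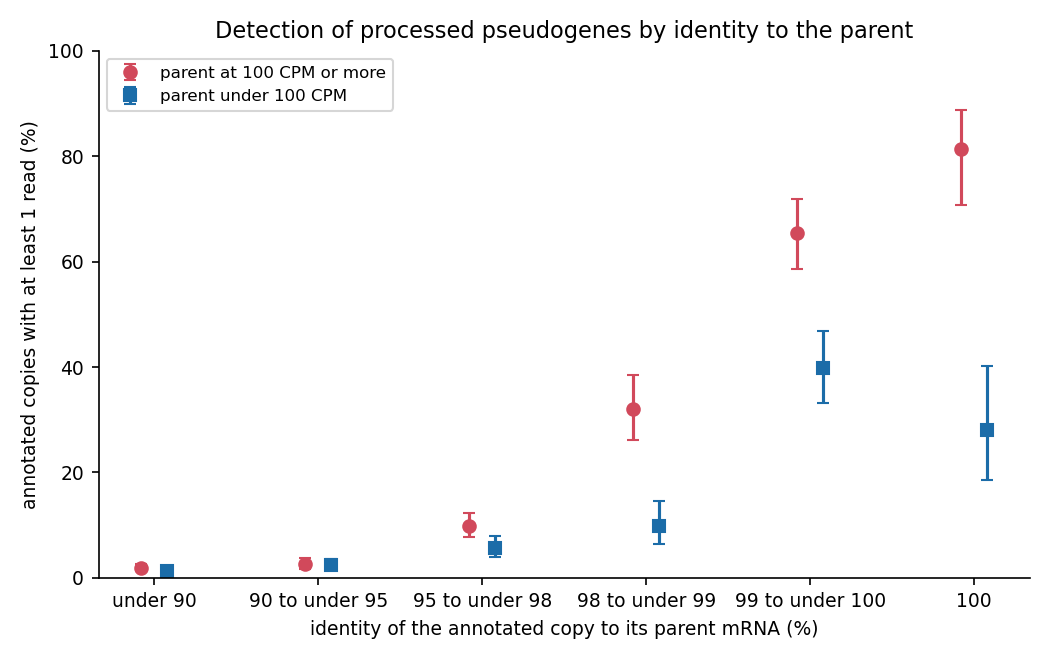
Share of annotated processed pseudogenes with at least 1 read, in percent, by identity to the parent mRNA, with 95% Wilson intervals as bars. Red circles stand for parents with a mean level of 100 CPM or more at their own locus, blue squares for those under 100 CPM. The red share reaches 81.4% for identical copies, while the blue share is 39.8% at 99% to under 100% identity and 28.1% for identical copies, with overlapping intervals.

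A frame as long as the parent's was found in a larger share of members than of other copies. An open reading frame as long as a complete coding sequence of the parent was found in 210 of the 555 members with a parent, or 37.8% (33.9 to 41.9). Of the 6519 copies without reads, 274 had one, or 4.2% (3.74 to 4.72). Only the length of the frame was compared, and identity was not held equal. The median identity was 99% in members and 90.4% in the copies without reads. These 210 held 66.2% of the member reads, and 15 of the first 20 members were among them. The other leaders were Gm10123, Rpl3-ps1, Gm10698, Gm14539 and Gm7536, whose annotated copies cover 98.3% to 99.8% of the parent's coding sequence and not the whole of it.

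The split of reads between parents and copies was similar in both libraries and differed from family to family. Over the 75 parents with at least 50 reads on copies and at least 100 reads on copies and parent together in each library, the share on copies differed between the libraries by a median of 1.96 points. Ppia had 48.8% of its reads on Gm10123 in replicate 1 (46.5 to 51.0) and 48.9% in replicate 2 (46.9 to 50.8). Rpl37 had 50.1% and 50.6% on Rpl37rt, Fau 48.0% and 46.5% on Gm9843, and Hspa8 46.0% and 47.7% on 2 copies. Rpl5 had 42.8% and 39.8% on Gm15500, Rpl3 36.2% and 32.7% on its copies, and Cox7c 34.3% and 34.7%. Across the 139 parents whose copies held at least 10 reads, the median share on copies was 14.5%, and 13 parents had more reads on copies than on themselves in both libraries.

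Of these 139 parents, 4 had over 80% of the reads on copies in both libraries. Gapdh itself had 4 reads in replicate 1 and 6 in replicate 2, while 12 of its 314 annotated copies together had 531 and 542, so that 99.3% and 98.9% of the reads lay on copies. Gm12671 held 196 and 192 of them, Gm12033 held 113 and 119, Gm5559 held 108 and 112, and Gm7336 held 67 and 66. Rpl21 had 17 and 40 reads against 383 and 527 on 10 copies, or 95.8% and 93.0% on copies. Rpl17, of the large ribosomal subunit, had 13 and 31 reads against 165 and 265 on 5 copies, or 92.7% and 89.5%, of which Rpl17-ps5 held 112 and 211. Rpl35a had 88 and 132 reads against 462 and 661 on 13 copies, or 84.0% and 83.4%. A count taken from the parent locus alone therefore gives Gapdh a level of 5.81 and 7.40 CPM, while parent and copies together had 777 and 676 CPM.

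Most other families with more reads on copies were ribosomal. Rpl30 had 70.2% and 72.6% of its reads on 5 copies, and Rps2 had 62.9% and 63.8% on 12 copies, led by Rps2-ps13. Rps6, Rps13, Rps19, Rpl27, Rpl29 and Rpl37 lay between 50.1% and 56.6%. Atp5g2 had 55.1% and 62.7% on Gm10231 and Gm10175, and was the only other parent in this set besides Gapdh that is not a ribosomal protein gene. The intervals of Rps29 reached both sides of 50%, with 52.3% (48.4 to 56.1) and 46.9% (43.7 to 50.1) on Gm14303. Among the parents with more reads on copies, those of Rpl27, Rpl29 and Rpl37 also did so in both libraries. The intervals of Rps6, Rps13 and Atp5g2 did so in replicate 1, and that of Rps19 in replicate 2. In replicate 1, Rpl37 had 308 reads on its copy against 307 of its own.

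**Figure D3:**
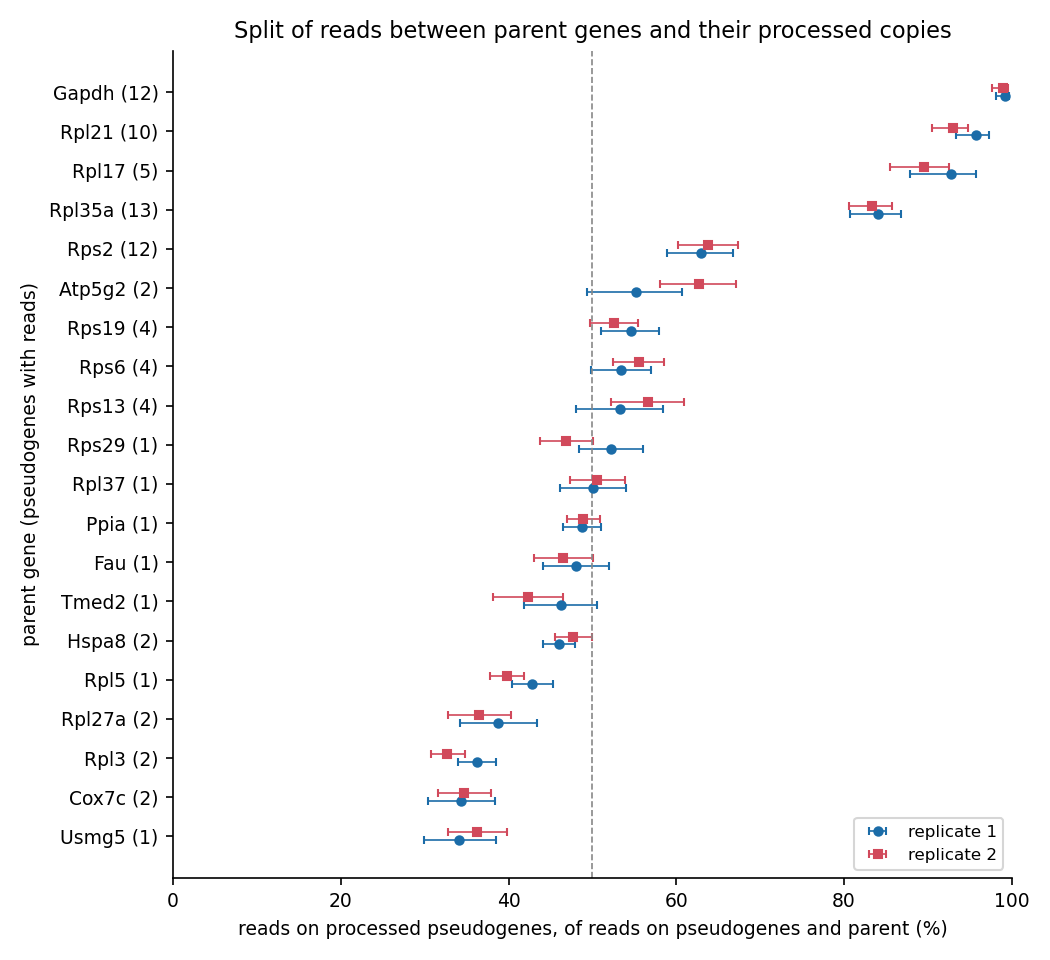
Share of reads on processed pseudogenes, out of the reads on those pseudogenes and their parent, for the 20 parents with the most reads on copies, with the number of copies with reads in parentheses, replicate 1 as blue circles, replicate 2 as red squares and 95% Wilson intervals as bars. Gapdh, Rpl21, Rpl17 and Rpl35a lie above 80%, and Ppia, Rpl37 and Fau lie near the dashed line at 50%.

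The split varied widely among identical copies. Among members that were the only copy of their parent with reads and held at least 50 reads, 17 were identical to the parent, and their share of the reads ran from 5.14% to 52.3% in replicate 1, with a median of 30.3%. In replicate 2 it ran from 5.32% to 48.9%, with a median of 31.1%. The 13 such members with 1 to 5 differences ran from 3.78% to 50.1% in replicate 1, and the 6 with more differences from 0.804% to 33.6%. Rps16-ps2, an identical copy of Rps16, stood at the low end of the identical ones with 27 and 39 reads against 498 and 694 in Rps16.

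Copies with one and the same annotated sequence often received unequal counts. There were 7 sets of members with identical sequences, 18 members in all. Gm10243 shares its 333 bases with Rpl35a-ps2, Rpl35a-ps3, Rpl35a-ps4 and Rpl35a-ps6, and had 834 reads over both libraries against 156, 48, 19 and 38. Gm13370 had 288 reads and Gm10240, with the same 483 bases, had 32. Gm12671 had 388 reads and Gm10359, with the same 1002 bases, had 14. Other sets were closer to even. Gm11518 had 201 reads and Rpl27-ps3, with the same 411 bases, had 165, while Rps12-ps11, Rps12-ps12 and Rps12-ps14 had 1 read each. Within such a set the annotated bases cannot tell the members apart, and bases outside the annotated copy were not compared.

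The parent by name, the gene whose symbol stands before the -ps ending, was available for a minority of reads. Of the members, 130 had such a name, 120 of them matched a protein-coding gene, with 79 parents in all, and these 120 held 28.7% of the member reads. The parents by name and by sequence were the same for 118 of the 120. Of the 59 with at least 10 reads, 5 had a higher mean level than the parent. Rpl21-ps15 stood at a log2 ratio of 3.59 in replicate 1 and 2.67 in replicate 2, and Rpl17-ps5 at 3.07 and 2.75. Rps2-ps13 stood at 0.60 and 0.66, and Rps19-ps6 at 0.25 and 0.13. Rpl17-ps9, with 21 and 26 reads against 13 and 31 in Rpl17, stood at 0.68 and −0.25 and so changed sides between the libraries.

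On the mean of both libraries the other members stood below the gene they are named for. In single libraries, Rps13-ps1 was above Rps13 in replicate 2, with 228 reads against 217, and Rpl17-ps8 was above Rpl17 in replicate 1, with 22 against 13. The median log2 ratio over the 59 was −2.38. Close to their parents were Rpl17-ps8 with 22 and 17 reads, Rps13-ps1, Rpl31-ps8 with 122 and 159 reads against 158 and 209 in Rpl31, Rpl35a-ps2 with 61 and 95 against 88 and 132, and Mpc1-ps, a copy of a mitochondrial pyruvate carrier gene with 48 and 67 against 58 and 124. The most abundant parents by name had copies at very different levels. Rpl3-ps1 stood at −0.93 relative to Rpl3, Rpl19-ps11 at −2.10, Rps27a-ps2 at −3.95, Rps16-ps2 at −4.16 and Rpl39-ps at −6.64, the last with 5 and 9 reads against 565 and 880 in Rpl39.

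**Figure D4:**
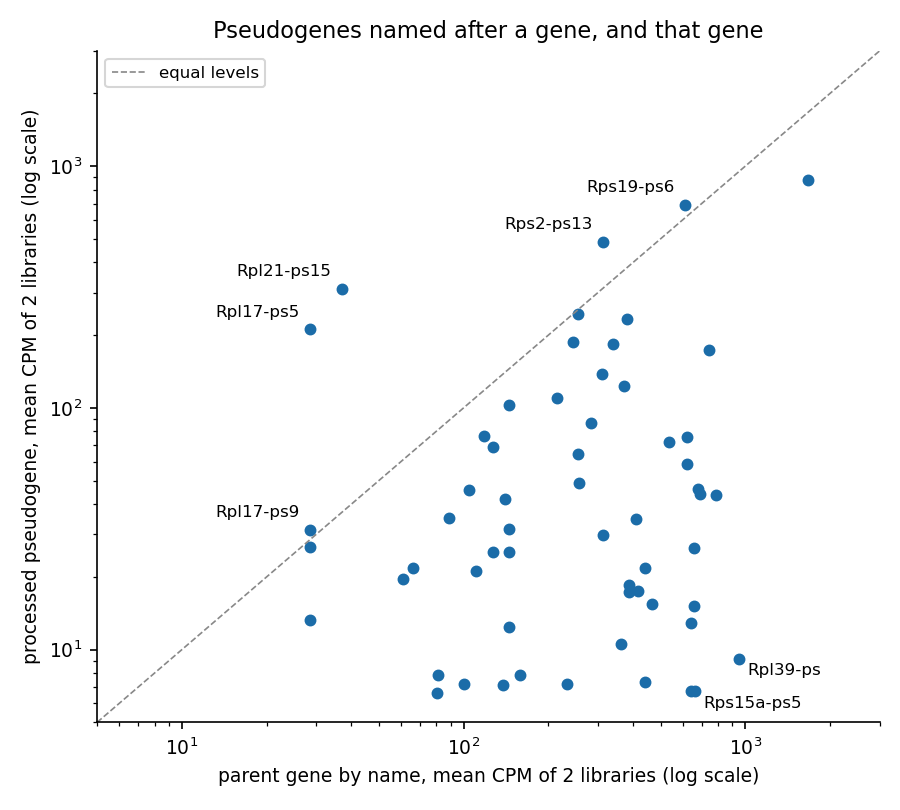
Mean CPM of 59 processed pseudogenes named after a protein-coding gene (vertical axis, log scale) against the mean CPM of that gene (horizontal axis, log scale), for members with at least 10 reads over both libraries, with equal levels as a dashed line. Rpl21-ps15 and Rpl17-ps5 lie far above the line, Rps2-ps13, Rps19-ps6 and Rpl17-ps9 just above it, and most members below it.

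Reads of members lay almost all on single-exon, annotated models of the copies. The annotation gives 51 of the 612 members a transcript with 2 or more exons, so this share follows in large part from the annotation. Reads of spliced parent RNA that were assigned to a copy cannot be told apart from reads of the copy in these counts. Models with a single exon held 98.8% and 98.9% of member reads, and models with 2 or more exons held 159 reads, 1.24% (1.07 to 1.45), and 177 reads, 1.10% (0.946 to 1.27). In protein-coding genes the share on models with 2 or more exons was 91.7% and 89.2%, in unprocessed pseudogenes, which are copies made at the DNA level and keep introns, 80.1% and 69.6%, and in lincRNA genes 51.8% and 50.1%. The parents themselves had 96.1% and 95.1% of their reads on such models. Known models held 98.9% or more of member reads in each library, against 77.0% and 73.9% in protein-coding genes. Models that TALON, the program behind the transcript names, calls genomic held 0.759% and 0.730% of member reads.

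**Figure D5:**
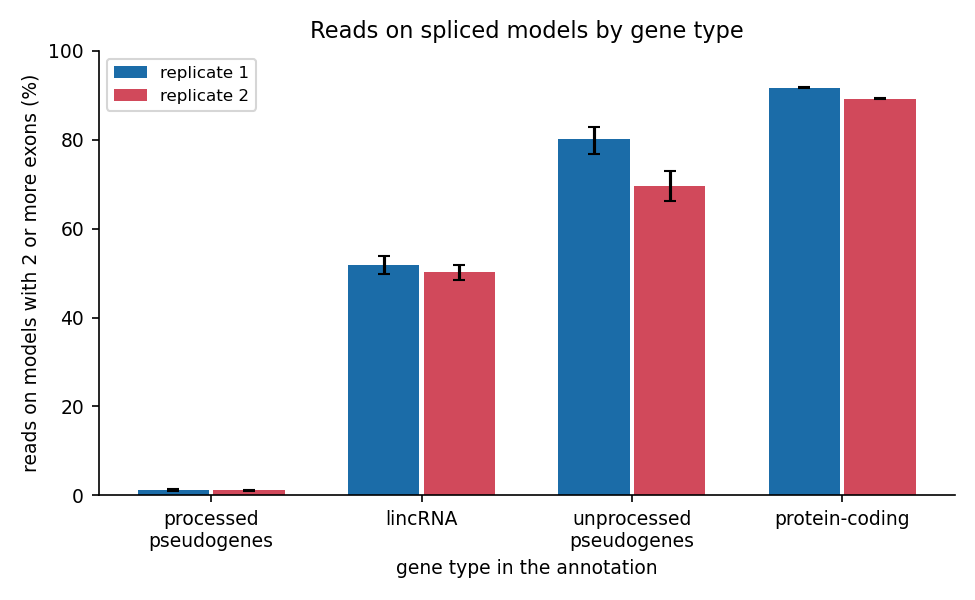
Share of reads on transcript models with 2 or more exons, in percent, by gene type, for replicate 1 (blue) and replicate 2 (red), with 95% Wilson intervals as bars. Processed pseudogenes lie near 1%, and protein-coding genes near 90%. Of the 612 processed pseudogenes with reads, 51 are annotated with a transcript of 2 or more exons.

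Models with 2 or more exons were found in 102 members, and most of these models had a single read. Replicate 1 had 89 member models with 2 or more exons, 72 of them with 1 read, and replicate 2 had 80, 63 with 1 read. Only 23 intron chains were found in both libraries. 2810025M15Rik, a transcribed member on chromosome 1 for which no parent was found, had all of its 33 and 43 reads on 1 known model of 3 exons that spans chr1:157412352-157420236 on the strand opposite to Rasal2. Gm1821, a copy of the polyubiquitin gene Ubb on chromosome 14, had 13 of 23 and 18 of 37 reads on models with 2 exons. In Gm1821 a gap of 456 bases, listed as an intron, had 11 reads in replicate 1 and 6 in replicate 2, and one of 228 bases had 1 and 11. The 456-base gap covers that 228-base gap and the 228 bases next to it, which were the gap of another model. Whether these gaps in a polyubiquitin copy are introns was not tested. The 456-base form was classed as a new splice site in replicate 1 and as genomic in replicate 2. Ppp1ccb, a transcribed copy of the phosphatase gene Ppp1cc identical to it over the matched transcript, had 4 and 13 reads on a known model of 2 exons, out of 67 and 65. Gm4118 (Psma2) had 5 and 7 reads on a genomic model of 2 exons, nearly all of its 6 and 7 reads. AC121957.1 (Rpl29) had 10 of 13 and 11 of 13 reads on models with 2 or more exons, in several forms. AC135670.1 had 5 spliced reads in replicate 2 and none in replicate 1, Gm13292 and Gm8290 had 5 over both libraries, Gm11847 had 5 and Gm43354 had 4.

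The transcribed members were led by Gm15500 and Rpl37rt, and 7 of the first 10 had no spliced read. Among the others, Gm10175 had 82 and 121, Gm5641 had 80 and 72, and Ppp1ccb had 67 and 65. Rps4l had 54 and 73 reads, Gm10177, a copy of the translocon gene Sec61g, had 43 and 53, Gm10275 (Rpl12) had 27 and 64, and Gm6472 (Rps7) had 32 and 53. Among the first 10, Rpl37rt had 1 spliced read, Gm5641 had 3 and Ppp1ccb had 20 over both libraries.

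By position, 370 of the 612 members, with 59.5% and 59.9% of the member reads, overlapped no other annotated gene. Another 150 overlapped a gene on the opposite strand only, with 27.6% and 25.9% of the reads, among them Gm15459, Gm8172 and Gm12338. Inside an intron of a gene on the same strand lay 73 members with 11.4% and 12.2% of the reads, led by Rps19-ps6 and Gm10243. The host Tecpr2 had 1 and 2 reads against 429 and 619 on Rps19-ps6. Only 19 members, with 1.48% and 2.01% of the reads, overlapped an exon of a same-strand gene, which makes the assignment of their reads uncertain. The X chromosome held 42 members and 15.8% and 15.2% of the member reads, with 5 of the first 20 on it. These 42 were 4.43% of its 949 annotated copies, against 5.98% over all chromosomes. Chromosome 5 held 15.5% and 12.5% of the member reads with 483 annotated copies, and chromosome 9 held 12.4% and 12.7% with 434. The Y chromosome held 1 member with 1 and 3 reads.

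Members were called as different between the libraries about as often as genes of all types. The question was whether single copies moved apart from the rest, and a two-sided Fisher's exact test set the reads of each gene against the rest of its library. The p-values were adjusted by the Benjamini-Hochberg method across 8276 annotated genes, those with at least 20 reads. Calls were made at adjusted p below 0.05 where the CPM values, with 0.5 added, differed by at least 1 on the log2 scale. Of all genes tested, 3.23% were called (267 of 8276), and of the 139 members tested, 4 were. With the adjusted p alone, 7.93% of all genes passed (656 of 8276), and a larger share of the members tested, 15 of 139. With 1 library on each side, the test compares the libraries and not animals. The median log2 ratio of replicate 2 over replicate 1 was 0.17 in the members tested and −0.10 in all genes tested.

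Vcp-rs fell and the other 3 called members rose from replicate 1 to replicate 2. Vcp-rs, a copy of the ATPase gene Vcp, had 81 and 31 reads, a log2 ratio of −1.61 (Fisher's exact test, adjusted p = 1.02e-06), while Vcp had 278 and 301. Gm10774 (chr2:126709354-126709557), a copy of the polymerase subunit gene Polr2l, had 9 and 51 reads, a log2 ratio of 2.22 (Fisher's exact test, adjusted p = 2.83e-05), while Polr2l had 229 and 304. Gm10774 overlaps an exon of Usp50 on the same strand, which had 115 and 106 reads. Gm11223 (chr4:69925630-69926079), a copy of the microtubule regulator Stmn1, had 13 and 49 reads, a log2 ratio of 1.65 (Fisher's exact test, adjusted p = 0.00156), while Stmn1 had 56 and 70. Pdcd5-ps (chr1:189277443-189277823), inside an intron of Kcnk2 and identical to Pdcd5 over its length, had 18 and 47 reads, a log2 ratio of 1.13 (Fisher's exact test, adjusted p = 0.0488), while Pdcd5 had 76 and 138. That call was lost when genes with at least 10 reads were tested (Fisher's exact test, adjusted p = 0.0556). Below the size threshold, Gm15459 had the smallest adjusted p, 2.41e-21, at a log2 ratio of −0.62. Among the 75 parents above, Vcp had the largest shift of its split, with the share of reads on its copy 13.2 points apart between the libraries. Stmn1, which had too few reads in replicate 1 to be among the 75, had 18.8% of its reads on copies in replicate 1 (11.4 to 29.6) and 41.2% in replicate 2 (32.7 to 50.2), 22.3 points apart.

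Known retrogenes on a short comparison list, all annotated as protein-coding, had few reads in the same libraries. The list does not stand for all such genes. Eno1b, a protein-coding parent outside the list, had 372 and 383 reads, of which 1 and 0 lay on models with 2 or more exons. Pgk2, Pdha2, Cetn1, Rpl10l, Rpl39l and G6pd2 had no read in either library, which allows up to 4.36 and 3.70 CPM each, and Utp14b had 0 and 1. The imprinted retrogenes had more, with 37 and 44 reads in Nap1l5, 11 and 13 in Zrsr1, 9 and 10 in Mcts2 and 1 and 4 in Peg12. The first of these, Nap1l5, stood at 53.8 and 54.3 CPM, below each of the 20 leading members.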

How the data were processed

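The deposited quantification files give raw read counts per transcript model, 1 file per library, and list only models with reads. The deposited file descriptions name filtered alignments to mm10 and the GENCODE M21 annotation as their basis, and TALON tags stand on the models, per the file headers. Neither labels nor headers name the aligner, the versions or the filters. The numbers of exons come from the same deposited files.

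Reads were summed per gene and scaled to mouse reads, 688260 and 810645. Annotated types, names and strands of all 10237 processed pseudogenes matched GENCODE M21. Parents by sequence came from blastn (BLAST+ 2.17.0, E-value at most 1e-10, same strand, at least 50% of the copy) against multi-exon protein-coding transcripts, and identity from edlib 1.3.9.post1. Tests used scipy 1.17.1, and the library test was tested on simulated data. Scaling alternatives were TMM (edgeR 4.0.16) and DESeq2 1.42.0 size factors. Alternatives are listed in the closing section.

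Named genes are the 20 members with the highest mean CPM, the 10 leading transcribed members, the 10 with the most spliced reads, every called member, the 10 with the highest level relative to a parent by name, the 5 whose parent by name is most abundant, and the 3 leaders of each family list. Members outside these rules were named after their values were seen. The members and lists were chosen with earlier results of these data known. No column of other samples was present, and spike-ins were left out. Some items among the named genes and sequences are not reported here.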

Additional observations from a re-analysis of the deposited data

How the results depend on the processing

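No paired analysis was possible because there is 1 group and no contrast between groups. Of 82 recomputed values, 69 kept their direction and call, stayed within the spread or interval or, for counts of genes, stayed within 1.5 times, 12 moved, 1 lost its call and none reversed. Without replicate 1 or without replicate 2 the summed level ran from 18561 to 19932 CPM, the genes found from 431 to 504, the share on models with 2 or more exons from 1.10% to 1.24%, the share on known models from 98.90% to 98.99%, and the members above their parent by name from 5 to 6. The number of genes found was 390 with at least 2 reads, 176 with at least 10 and 323 with a read in each library. The share of reads on models with 2 or more exons, 1.17% on average, was 0.648% without genomic models, 0.360% on known models only and 0.910% without 2810025M15Rik. With known models only, 8 of 58 members exceeded their parent by name instead of 5 of 59, and with the parent by sequence, an alternative added after seeing the data, 18 of 174 did. Without a size threshold, 15 members differed between the libraries. The called members were 3 to 5 under every other alternative of that test, with TMM and DESeq2 scaling at 5. Pdcd5-ps lost its call when genes with at least 10 reads were tested (adjusted p = 0.0556, Fisher's exact test, over a range of 0.0199 to 0.0556). At 99% identity or more, 53.4% of copies had reads, 45.2% and 47.1% in single libraries and 26.7% with at least 10 reads, alternatives also added after seeing the data. The depth limits genes of 1 to 3 reads.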
